A study of Mus musculus with 48 samples.

Results

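The ribosome-bound RNA of cerebella with a conditional knockout of Chd4 was compared with that of wild-type cerebella at postnatal day 12, and 35 genes differed between the genotypes. They are the genes of the deposited comparison of pull-down libraries, whose 38 entries all passed the authors' test (adjusted p under 0.05), less 3 Y-linked genes. Of the 35, 30 were higher in the knockout (cKO), where 0.114% of features were called higher, and 5 were lower, where 0.0305% were called lower with the Y-linked genes included. The 38 called genes are 0.145% of the 26242 features that the authors' adjusted p-values show to have been tested. Because this contrast chose the genes, its values are a description of them, and a gene it did not call has no value at this age. Across the 4 gene tables of the series 6143 genes are listed.

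The series covers mouse cerebellum in 48 samples and asks what the remodeler Chd4 does to gene expression and chromatin. Sync-TRAP is a pull-down of ribosome-bound RNA, here from 3 wild-type (WT) and 3 Chd4 cKO cerebellum samples at postnatal day 12 (P12), 6 days after electroporation. The RNA was amplified before sequencing. Messenger RNA of whole cerebellum at P27 to P28 came from 4 WT and 4 Chd4 cKO samples. It also came from 4 samples of mice trained on a rotarod (a turning rod on which a mouse keeps its balance). Mice at rest in the home cage gave 4 samples. For the rotarod and rest samples no Chd4 genotype is given. The promoter or cell type that drives the ribosome tag and the recombinase, and what was electroporated, are not given in the labels, and the columns of the pull-down table name its groups only as "cre" and "ctrl". Whether each library came from a separate animal is not given either, so the p-values measure the spread between these samples, which may be technical.

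Chd4 is the ATPase of NuRD, a complex that joins nucleosome remodeling with histone deacetylation and is known mainly for holding genes at a low level. In the cerebellum it is studied in granule neurons, the small and very numerous excitatory neurons that migrate inward and form synapses after birth. Translating ribosome affinity purification (TRAP) isolates transcripts on tagged ribosomes, so that the RNA of a chosen cell population can be read out of whole tissue.

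Effective depth was 25.2, 26.8 and 27.1 M reads in WT pull-down libraries 1 to 3 and 23, 23.8 and 24.3 M in cKO libraries 1 to 3, and 13.7 to 16.7 M in the mRNA libraries. The 3 Y-linked genes had 710 to 1381 reads in WT library 1 and at most 2 reads in the other 5 pull-down libraries, so WT library 1 stands apart from the rest. Chd4 itself is not listed among the pull-down genes, so its level does not check the genotype labels of these libraries. At P27 to P28 its mRNA was 0.739 of the WT level, a log2 difference of -0.44 ± 0.06 (limma SE, Benjamini-Hochberg adjusted p = 0.00199, n = 4 per genotype). Of 112 markers of 13 cell types, Itpr1 alone is listed at P12, so the cells in the pull-down could not be checked against their markers from this table. In WT pull-down against WT input the glial marker Hopx is the only marker listed, at -2.23 ± 0.44 (limma SE, Benjamini-Hochberg adjusted p = 1).

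Promoters of 28 of the 35 genes could be matched to RefSeq sequence (build GRCm38.p6, the 250 bases before the start site). BC064078, Abcc3, Emilin3, Cpne7, Il34, Gmeb2 and Itpr1 were not matched. Those of 4 genes are shown. Among genes higher in cKO at both ages and matched to a promoter, 1700048O20Rik, Wnt9a and Kank4os had the largest rises at P27 to P28. Npas4 is the activity-regulated gene of the set. The motif marked was picked gene by gene. They are written 5′ to 3′ on the strand of the gene. Capitals mark CCAAT boxes, read on both strands, in 1700048O20Rik (chr9:121937025-121937274, plus strand), E-boxes CANNTG in Wnt9a (chr11:59306680-59306929, plus strand) and Kank4os (chr4:98793518-98793767, plus strand), and half-sites TGACG of the cyclic AMP response element, read on both strands, in Npas4 (chr19:4989972-4990221, minus strand).
1700048O20Rik: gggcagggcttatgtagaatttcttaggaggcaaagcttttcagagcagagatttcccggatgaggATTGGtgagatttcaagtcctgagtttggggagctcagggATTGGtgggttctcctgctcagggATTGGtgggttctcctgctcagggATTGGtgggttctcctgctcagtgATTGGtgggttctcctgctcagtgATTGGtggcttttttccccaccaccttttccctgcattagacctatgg
Wnt9a: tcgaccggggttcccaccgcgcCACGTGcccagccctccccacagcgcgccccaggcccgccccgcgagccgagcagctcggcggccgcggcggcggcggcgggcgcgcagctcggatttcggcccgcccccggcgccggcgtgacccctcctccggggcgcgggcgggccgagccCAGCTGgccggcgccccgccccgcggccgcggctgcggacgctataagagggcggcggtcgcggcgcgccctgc
Kank4os: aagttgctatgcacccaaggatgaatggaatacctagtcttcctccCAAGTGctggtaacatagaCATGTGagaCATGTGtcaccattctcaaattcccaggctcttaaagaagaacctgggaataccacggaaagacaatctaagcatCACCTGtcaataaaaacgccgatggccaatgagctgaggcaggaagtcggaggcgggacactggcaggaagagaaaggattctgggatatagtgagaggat
Npas4: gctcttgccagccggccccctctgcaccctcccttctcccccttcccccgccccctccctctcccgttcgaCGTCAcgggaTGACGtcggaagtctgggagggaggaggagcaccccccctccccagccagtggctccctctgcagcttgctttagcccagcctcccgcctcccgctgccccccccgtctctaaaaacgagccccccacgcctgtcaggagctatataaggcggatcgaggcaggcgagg
In the promoter of 1700048O20Rik 6 CCAAT boxes were found, most of them in a repeated stretch. Of all 32851 RefSeq promoters of that length 0.0578% hold at least as many. The motif was picked after this sequence had been seen, so a rare count was to be expected. The promoter of Wnt9a holds 48 CG pairs and 2 E-boxes, and 31.8% of all promoters have 2 E-boxes or more. Kank4os has 4 E-boxes, a number reached by 3.84% of all promoters. Npas4 has 2 half-sites of the cyclic AMP response element, a number reached by 3.9%.

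Over the 28 promoters no searched motif was common to the genes. The E-box CANNTG was present in 13 (46.4%, against 66.2% of all promoters) and its form CAGCTG, which CANNTG includes, in 5 (17.9% against 13%). The half-site TGACG was in 6 (21.4% against 17.8%), the TATA box TATAAA in 1 (3.57% against 12.4%), CCAAT in 13 (46.4% against 33.8%), and the AP-1 site TGANTCA in 0 against 6.75% of all promoters. Both strands were searched in the first listed start site of each gene, which leaves out the other start sites of Cd180, Gstm6 and Tmem150c, and CCAAT was added after the sequences had been seen. The median number of CG pairs was 8.5 (range 1 to 48), and the median over all promoters was 6. These matches describe the letters in the window and nothing more.

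**Figure D1:**
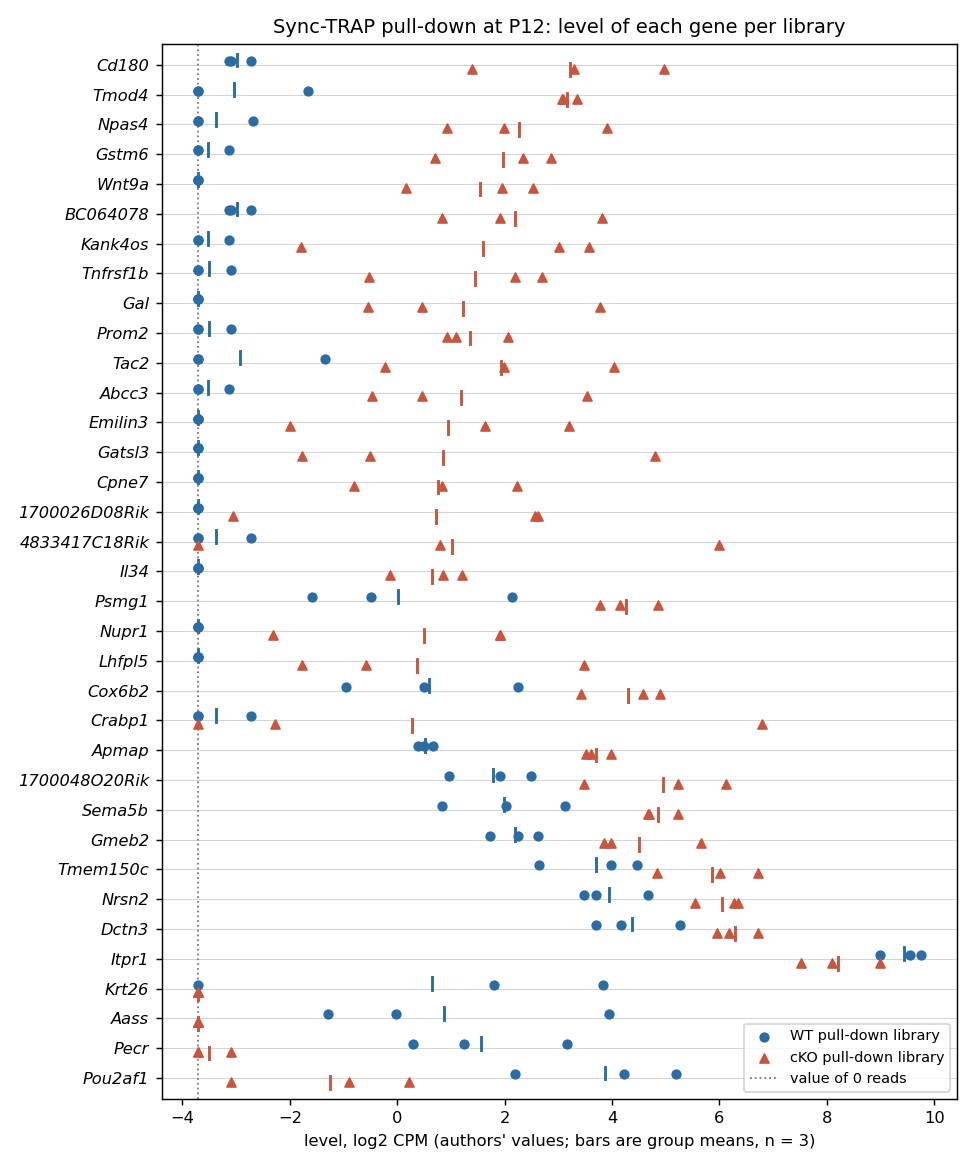
Level of each of the 35 genes in the 6 pull-down libraries at P12, in the authors' log2 CPM; circles are WT libraries, triangles cKO libraries, bars the group means (n = 3), and the dotted line is the value of 0 reads. Most of the 30 higher genes lie on or near the dotted line in WT, and the cKO libraries of one gene often lie several log2 units apart.

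Most of the genes that were higher in cKO were nearly absent from the WT pull-down. Of the 30, 9 had 0 reads in all 3 WT libraries, 14 had 0 or 1 read over the 3, and 21 had at most 10. The same 21 genes had 114 to 2686 reads over the 3 cKO libraries, with a median of 326. The other 9, among them Dctn3, Nrsn2 and Tmem150c, had over 10 reads in WT and smaller folds. No WT library overlapped a cKO library for 28 of the 30 higher and 4 of the 5 lower genes, counts that the choice of genes by this contrast (0.145% of features called) largely fixes. Crabp1, 4833417C18Rik and Krt26 were the exceptions.

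The reads were spread unevenly over the cKO libraries. The library with the most reads held 37.8% to 99.9% of a higher gene's cKO reads (median 56.4%), and it was cKO library 3 for 19 genes, library 1 for 6 and library 2 for 5. For 7 genes 1 library held at least 75%, and in 6 of these it was library 3. Over 10 reads were present in all 3 cKO libraries for 22 of the 30. Leaving out any 1 of the 6 libraries kept the direction of all 35 genes. For genes whose groups do not overlap this was fixed in advance. The difference stayed at least 2-fold for all 35 in each case but that without cKO library 3, where Crabp1 (0.39 on the log2 scale) and Itpr1 (-0.89) were smaller, leaving 33. The fold moved by over 1.5 times for 16, 10 and 17 genes without cKO libraries 1, 2 and 3, and for 5, 4 and 5 genes without WT libraries 1, 2 and 3.

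**Figure D2:**
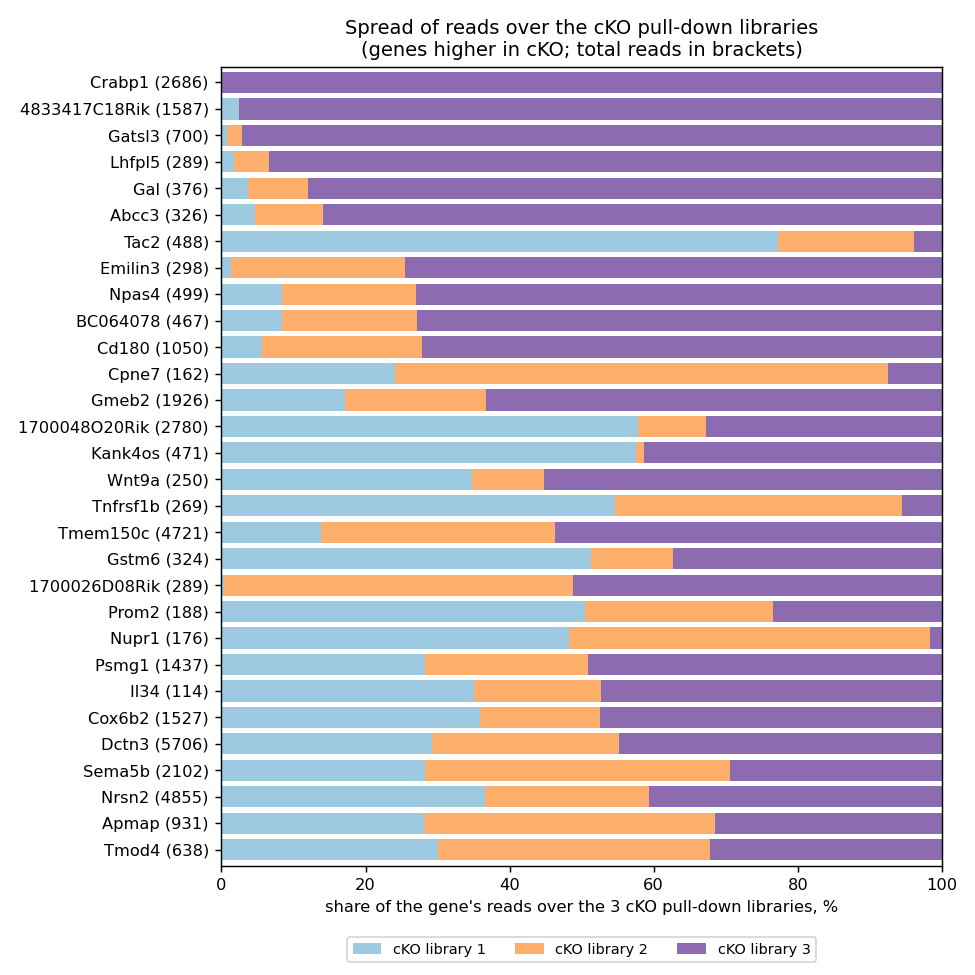
Share of each higher gene's cKO reads found in cKO libraries 1, 2 and 3 (x axis, percent), with the total reads in brackets; genes are ordered by the share of the fullest library. Crabp1 at the top has 99.9% of 2686 reads in library 3, and Tmod4 at the bottom has at most 37.8% of 638 reads in any library.

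The set was also read with limma on the deposited log2 values, with Benjamini-Hochberg adjustment over all 26242 features. None of the 35 genes passed (smallest adjusted p = 1), and 31 had an unadjusted p under 0.05, 28 of them higher and 3 lower. The same values chose the genes, so low unadjusted p-values were to be expected and are no support. In data simulated with the spread of these libraries the same fit recovered 0% of log2 changes of 2 and of 5, so its count of 0 carries no information on the genes. An exact permutation test on 3 against 3 libraries cannot go below p = 0.10. The calls therefore rest on the authors' deposited test, in which 13 of the 35 genes had an adjusted p between 0.04 and 0.05 and 2, Cd180 (adjusted p = 0.000231) and Nrsn2 (0.00848), were under 0.01. Differences below are cKO minus WT in log2 CPM with limma's SE, n = 3 per genotype; for a gene with 0 reads in a group they depend on the authors' prior count and are no bound.

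The genes are described by what their products do, a grouping made after their values were seen. In the RefSeq annotation 16 of the 35 overlap another gene, Wnt9a, Il34, Cpne7 and Itpr1 among them. Strand-specific counting is not stated, so reads of overlapping genes cannot be told apart where they overlap. Secreted signals are encoded by 4 genes, all higher in cKO. Wnt9a, a Wnt family ligand, had 0 reads in each WT library and 87, 25 and 138 reads in cKO libraries 1 to 3. All 3 cKO libraries thus contained it, at least 92.7-fold above the WT group taken at a floor of 3 reads, with a log2 difference of 5.25 ± 0.84 (5.94 without cKO library 2). Gal, the precursor of the neuropeptide galanin, had 0 reads in WT and 14, 31 and 331 in cKO, at least 139-fold more. Its cKO reads lay mostly in library 3 (88%), and the log2 difference of 4.94 ± 1.19 became 3.67 without that library. Il34, a ligand of the receptor that keeps microglia alive, had 0 reads in WT and 40, 20 and 54 in cKO (4.35 ± 0.70, at least 42.3-fold). It had the fewest cKO reads of the higher genes, and all 3 cKO libraries held some. Tac2, the precursor of neurokinin B, had 8 reads over the WT libraries, all in library 1, and 488 over the cKO libraries, 77.3% of them in library 1. Without cKO library 1 its log2 difference was 3.80 in place of 4.85 ± 1.29, and without cKO library 3 it was 5.93.

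Receptors and other proteins of the cell surface and membranes are encoded by 8 genes, all higher in cKO. Cd180, a Toll-like receptor relative known from B cells and other immune cells, had 1, 2 and 1 reads in WT and 59, 233 and 758 in cKO. All cKO libraries were far above all WT libraries, 292-fold over the groups (95% interval 114 to 1074, counting error only), with a log2 difference of 6.21 ± 1.02 and of 5.34 without cKO library 3. Tnfrsf1b, a receptor for tumour necrosis factor, had 1 read over WT and 269 over cKO (4.96 ± 1.01, 4.34 without cKO library 1 and 5.95 without cKO library 3). None of the 11 microglia and macrophage markers is listed at P12. At P27 to P28 only Ctss of the 11 is listed, and its level was 11.1 to 16.7 CPM in WT and 15.4 to 19.4 CPM in cKO. Whether cells of this kind contributed to the reads of Cd180 and Tnfrsf1b was not tested.

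Prom2, a prominin of membrane protrusions, had 1, 0 and 0 reads in WT and 95, 49 and 44 in cKO (4.87 ± 0.71). The cKO libraries agreed better for Prom2 than for most genes of low WT level, with an SD of 0.62 log2 CPM. Abcc3, an export pump for organic anions, had 0, 0 and 1 reads in WT and 15, 31 and 280 in cKO (4.70 ± 1.14, and 3.52 without cKO library 3). Lhfpl5, a subunit of the mechanotransduction channel complex of inner ear hair cells, had 0 reads in WT and 5, 14 and 270 in cKO. For Lhfpl5 93.4% of the cKO reads came from library 3, and the log2 difference of 4.08 ± 1.38 was 2.53 without it.

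The remaining membrane proteins were already present in WT. Tmem150c, linked to mechanically activated currents, had 155, 588 and 424 reads in WT and 655, 1534 and 2532 in cKO, 4.5-fold more (2.16 ± 0.87). Apmap, an esterase-like membrane protein first known from fat cells, had 38, 33 and 36 reads in WT and 262, 376 and 293 in cKO, 9.68-fold more (3.19 ± 0.64). Both groups of Apmap were tight, and any library left out gave 3.05 to 3.28. Nrsn2, a neuronal vesicle membrane protein, rose from 1287 to 4855 reads over the groups, 4.2-fold (2.10 ± 0.72).

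Both genes for extracellular matrix and guidance proteins were higher. Sema5b, a transmembrane semaphorin that steers axons, had 101, 231 and 46 reads in WT and 593, 891 and 618 in cKO, 6.19-fold more (2.87 ± 0.83). The cKO libraries of Sema5b differed little and all lay above WT. Emilin3, an extracellular matrix glycoprotein, had 0 reads in WT and 4, 72 and 222 in cKO (4.65 ± 1.35, and 3.52 without cKO library 3). Its lowest cKO library was close to the floor. Of 17 fixed genes of axon guidance, dendrite and synapse assembly, which do not include Sema5b, none is listed at P12.

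Transcription factors or cofactors are encoded by 4 genes, 3 of them higher. Npas4, a transcription factor that neurons switch on with calcium entry, had 2, 0 and 0 reads in WT and 42, 93 and 364 in cKO. Every cKO library exceeded every WT library, 278-fold over the groups (95% interval 76.4 to 2298; log2 difference 5.64 ± 0.96, and 4.83 without cKO library 3). Npas4 was the 1 gene of 21 fixed activity-regulated genes that is listed at P12, and the other 20, Fos and Arc among them, have no value in this comparison. Nupr1, a small nuclear protein of the stress response, had 0 reads in WT and 85, 88 and 3 in cKO (4.21 ± 1.26). Here cKO library 3 was the low one, and the difference was 3.50, 3.50 and 5.62 without cKO libraries 1, 2 and 3. Gmeb2, which binds glucocorticoid modulatory elements, had 81, 125 and 165 reads in WT and 330, 376 and 1220 in cKO (2.30 ± 0.80, 5.77-fold).

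Pou2af1, a B cell coactivator of octamer-binding factors, was lower in cKO. WT libraries 1 to 3 had 470, 120 and 990 reads of it and cKO libraries 1 to 3 had 25, 11 and 1. The groups did not overlap, and the cKO level was 38.4-fold lower (-5.12 ± 1.20, and -4.21 without cKO library 3). None of the 15 NuRD genes is listed at P12.

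Calcium-related genes went in both directions. Cpne7, a copine that binds membrane phospholipids with calcium, had 0 reads in WT and 39, 111 and 12 in cKO, at least 60.1-fold more (4.46 ± 0.93, 3.71 without cKO library 2 and 5.24 without cKO library 3). Itpr1, the calcium release channel of the endoplasmic reticulum and the gene of the set with the most reads, had 18923, 23156 and 13886 reads in WT and 6317, 12158 and 4456 in cKO. The lowest WT library and the highest cKO library were almost level, both at 9.0 log2 CPM, and the cKO group was 2.19-fold lower (-1.23 ± 0.73). Itpr1 is best known from Purkinje cells and is 1 of 8 fixed Purkinje markers, of which the other 7 are not listed at P12. At P27 to P28, 6 of the 8 Purkinje markers, Itpr1 among them, were listed as lower in cKO and 2 are not listed, where 9.3% of features were called lower. This was not particular to Purkinje markers. Of 7 inhibitory interneuron markers 6 were lower and 1 higher, and of 8 oligodendrocyte markers 6 were lower and 2 are not listed. Of 13 mature granule neuron markers 4 were higher and 4 lower. The part of Purkinje RNA in the value of Itpr1 was not tested, and in bulk samples fewer cells of a type and less RNA per cell cannot be told apart.

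Genes of the cytoskeleton included 2 that were higher. Tmod4, which caps the pointed ends of actin filaments in skeletal muscle, had 6, 0 and 0 reads in WT and 192, 241 and 205 in cKO, 118-fold more (6.20 ± 0.82). It had the smallest spread of all higher genes over the cKO libraries (SD 0.16 log2 CPM), and without WT library 1, which held all its WT reads, the difference was 6.88. None of 8 skeletal muscle markers is listed at P12. At P27 to P28, Acta1, Mylpf, Tnnc2 and Casq1 are listed as higher, with a summed level of 4.23 to 5.3 CPM in WT and 50.2 to 55.1 CPM in cKO, and their relation to Tmod4 was not tested. Tmod4 overlaps Vps72 in the RefSeq annotation, and strand-specific counting is not stated, so reads of the 2 genes cannot be told apart where they overlap. Dctn3, a dynactin subunit of dynein transport, rose from 1794 to 5706 reads over the groups (1.91 ± 0.75), the smallest of the rises. Krt26, a hair follicle keratin, had 357, 91 and 0 reads in WT and 0 in each cKO library, so WT library 3 equalled the cKO libraries. Its log2 difference of -4.35 ± 1.85 was -2.75 without WT library 1 and -6.52 without WT library 3.

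Metabolic enzymes were split. Gstm6, a glutathione transferase, rose from 1 to 324 reads over the groups (5.49 ± 0.82, and 6.12 without cKO library 2). It has close relatives in the same gene family, among which short reads can be divided. Cox6b2, an isoform of a cytochrome oxidase subunit found mainly in testis, had 11, 125 and 36 reads in WT and 549, 254 and 724 in cKO, 9.88-fold more (3.71 ± 1.02). None of its WT libraries reached the lowest cKO library, and the difference was 2.93 without WT library 1 and 4.54 without WT library 2. Aass, which starts lysine breakdown, had 23, 9 and 413 reads in WT and 0 in each cKO library, at least 133-fold fewer (-4.59 ± 1.37). Most of its WT reads were in library 3 (92.8%), and without it the difference was -3.06. Pecr, a peroxisomal enoyl-CoA reductase, had 29, 61 and 240 reads in WT and 0, 0 and 1 in cKO (-5.06 ± 0.92, and -4.26 without WT library 3).

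Psmg1, Gatsl3 and Crabp1 complete the known proteins. Psmg1, a chaperone of proteasome assembly, rose from 138 to 1437 reads over the groups, 11.6-fold (4.25 ± 1.09, 5.30 without WT library 2 and 3.45 without WT library 3). Gatsl3 (Castor1), an arginine sensor of the mTORC1 pathway, had 0 reads in WT and 5, 15 and 680 in cKO, with 97.1% in library 3. Its log2 difference of 4.55 ± 1.68 was 2.57 without that library. Crabp1, a binding protein of retinoic acid, had 0, 0 and 2 reads in WT and 3, 0 and 2683 in cKO. Crabp1 was thus a gene of 1 cKO library, its groups overlapped, and the difference of 3.65 ± 2.63 was 0.39 without cKO library 3.

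Another 5 entries are noncoding or little-studied RNAs, all higher in cKO. 1700048O20Rik, whose promoter with 6 CCAAT boxes is shown above, had 47, 149 and 100 reads in WT and 1606, 264 and 910 in cKO, 10.4-fold more (3.16 ± 0.94, and 2.57 without cKO library 1). Kank4os, antisense to Kank4, had 0, 0 and 1 reads in WT and 271, 5 and 195 in cKO (5.11 ± 1.47, 4.13, 6.81 and 4.40 without cKO libraries 1, 2 and 3). Kank4 itself is not listed, and without strand its reads and those of Kank4os cannot be told apart where they overlap. 4833417C18Rik had 0, 0 and 2 reads in WT and 38, 0 and 1549 in cKO, so its groups overlapped and 97.6% of its cKO reads came from library 3 (4.41 ± 2.27, and 1.92 without it). 1700026D08Rik (Cfap161), named for cilia and flagella, had 0 reads in WT and 1, 140 and 148 in cKO (4.42 ± 1.59, and 6.31, 3.49 and 3.46 without cKO libraries 1, 2 and 3). BC064078, annotated as a transcribed pseudogene, rose from 4 to 467 reads over the groups (5.17 ± 0.93, 5.85 without cKO library 1 and 4.36 without cKO library 3), with 72.8% of the cKO reads in library 3, a share close to those of Npas4 (72.9%) and Cd180 (72.2%).

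Whole cerebellum mRNA at P27 to P28 measured the same genes in libraries that had no part in choosing them. Of the 35, 17 are listed there (48.6%), where 20.3% of 27083 features were called. Of the 30 genes higher in the pull-down, 14 were higher again (46.7%), against 11% of features called higher, 1 was lower and 15 are not listed. Of the 5 lower genes, Itpr1 was lower again (9.3% of features called lower), Krt26 was higher, and Aass, Pecr and Pou2af1 are not listed. By at least 2-fold, 10 of the 30 were higher, against 3.2% of features. Limma passed 16 of the 35, against 13.2% of features, 14 as higher (8.17% of features) and 2 as lower (5.04% of features). Those passed as higher were Krt26 and 13 of the 14 genes higher at both ages. Of the 17 listed genes only 4833417C18Rik did not pass. All 17 had already passed the authors' test, and limma was run on listed genes alone. A share of the 17 therefore cannot be set beside a share of all features. The 14 genes higher at both ages had a median log2 difference of 1.68, beside 0.53 over all genes listed as higher at P27 to P28. Their abundance ran from percentile 7.08 (Kank4os) to 57.6 (Tmem150c) of the genes listed there. A gene with fewer reads needs a larger difference to be called, and the medians were not matched for abundance. The share of higher genes was 11 of 23 (47.8%) among genes with under 75% of their cKO pull-down reads in 1 library, and 10 of 22 (45.5%) among those with over 10 reads in all 3 cKO pull-down libraries, both subsets chosen after the data were seen. The ages also differ in tissue fraction and library preparation, so age cannot be told apart from these.

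**Figure D3:**
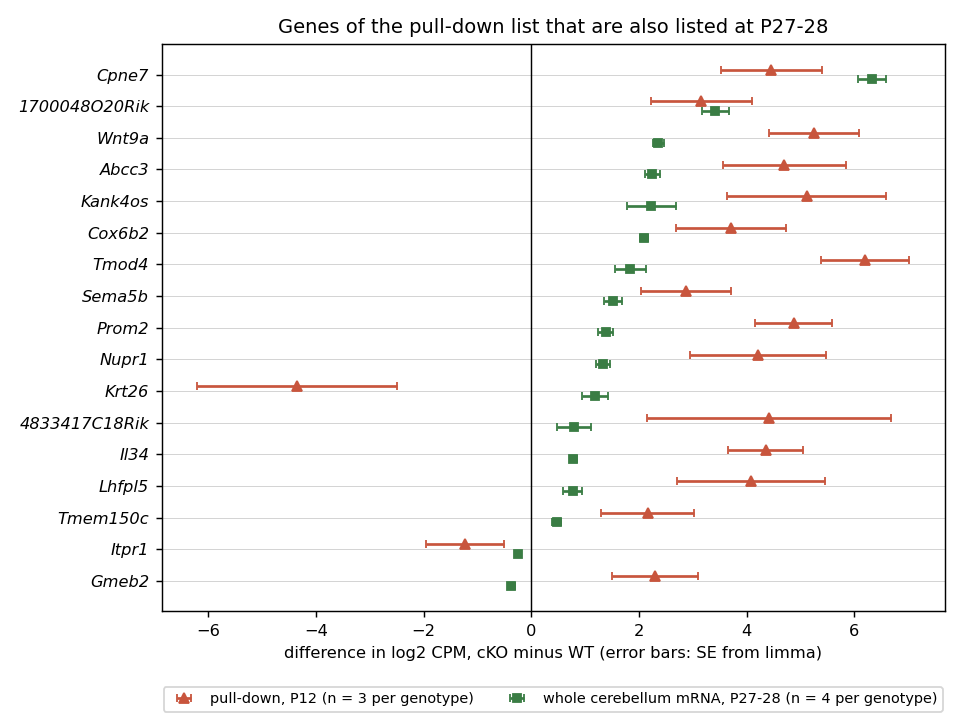
Difference between cKO and WT in log2 CPM (x axis) for the 17 genes listed at both ages; triangles are the P12 pull-down (n = 3 per genotype), squares whole cerebellum mRNA at P27 to P28 (n = 4 per genotype), and bars are limma's SE. The same direction was found for 15 genes, which lie on one side of 0, and Krt26 and Gmeb2 lie on opposite sides.

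Cpne7 had the largest rise of the set in the older cerebellum. Its level was -0.73, -1.23, -1.13 and -0.29 log2 CPM in WT libraries 1 to 4 and 5.47, 4.92, 5.64 and 5.89 in cKO libraries 1 to 4. The groups were far apart, with 26 reads over WT and 2660 over cKO, a difference of 6.33 ± 0.26, which is 80.2-fold as a ratio of geometric means (the form of every mRNA fold given here) (limma SE, Benjamini-Hochberg adjusted p = 4.64e-06). 1700048O20Rik was at 1.95, 1.90, 2.49 and 3.11 log2 CPM in WT and 5.71, 5.64, 5.86 and 5.94 in cKO, a difference of 3.42 ± 0.25. Wnt9a was at 0.55, 0.37, 0.63 and 0.70 in WT and 2.91, 2.77, 2.86 and 3.17 in cKO, a difference of 2.36 ± 0.10 or 5.14-fold (limma adjusted p = 6.38e-06). This Wnt ligand, with no WT read in the P12 pull-down, had 80 reads over the 4 WT mRNA libraries.

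Another 5 genes were 2.87-fold to 4.76-fold higher in cKO without any overlap of libraries. How many of all listed genes have groups without overlap was not counted, so overlap is described here and below for single genes only. Abcc3 was at 0.48, 0.52, 0.90 and 0.37 log2 CPM in WT and 2.89, 2.77, 2.56 and 3.06 in cKO (2.25 ± 0.14). Kank4os was at -2.30, -1.01, -2.87 and -2.29 in WT and 0.74, -0.88, 0.28 and 0.30 in cKO (2.23 ± 0.45), from 7 reads over WT and 59 over cKO. The groups of Kank4os were close, since WT library 2 and cKO library 2 differed by less than the others. Cox6b2 was at 2.73, 2.43, 2.38 and 2.46 in WT and 4.55, 4.56, 4.57 and 4.71 in cKO (2.09 ± 0.08). Tmod4 was at -0.90, -0.81, -0.04 and 0.44 in WT and 1.57, 1.32, 1.66 and 1.48 in cKO (1.84 ± 0.29). Sema5b was at 3.52, 4.38, 4.01 and 3.87 in WT and 5.30, 5.44, 5.65 and 5.46 in cKO (1.52 ± 0.17). No WT library of these 5 genes reached the level of a cKO library. Limma's adjusted p for the 5 genes lay between 4.64e-06 (Cox6b2) and 0.0139 (Kank4os).

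The other rises were smaller. Prom2 was at 2.41, 2.25, 2.84 and 2.53 log2 CPM in WT and 4.16, 3.71, 3.74 and 3.92 in cKO (1.38 ± 0.14). Nupr1 was at 2.02, 1.76, 1.95 and 2.39 in WT and 3.29, 3.24, 3.41 and 3.54 in cKO (1.34 ± 0.13). In both genes every cKO library was above every WT library. Il34 was at 2.58, 2.65, 2.55 and 2.69 in WT and 3.26, 3.46, 3.37 and 3.49 in cKO (0.78 ± 0.07, 1.72-fold, limma adjusted p = 0.000153). Tmem150c was at 4.71, 4.96, 4.97 and 5.0 in WT and 5.44, 5.22, 5.41 and 5.44 in cKO (0.47 ± 0.08, 1.38-fold). Neither Il34 nor Tmem150c had overlapping groups.

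The groups overlapped for Lhfpl5 and 4833417C18Rik. Lhfpl5 was at 1.73, 1.11, 1.13 and 0.93 log2 CPM in WT and 2.05, 1.67, 2.13 and 2.12 in cKO (0.77 ± 0.18, limma adjusted p = 0.0271), and it lost its limma call when any 1 of 6 libraries was left out (WT 2, 3 or 4, or cKO 1, 3 or 4; adjusted p 0.0724 to 0.0791). 4833417C18Rik was at -1.31, -0.49, 0.05 and 0.03 in WT and -0.09, 0.28, 0.44 and 0.81 in cKO (0.79 ± 0.32, limma adjusted p = 0.201). It was thus called in the authors' deposited table and not by limma, unless the replicate number was a block (adjusted p = 0.0258).

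Itpr1 and Gmeb2 were lower at P27 to P28. Itpr1 was at 12.09, 12.14, 12.14 and 12.08 log2 CPM in WT and 11.82, 11.84, 11.83 and 11.95 in cKO, a difference of -0.25 ± 0.05 (limma adjusted p = 0.0127). Gmeb2 was at 5.33, 5.46, 5.54 and 5.50 in WT and 5.12, 5.07, 5.10 and 5.06 in cKO, a difference of -0.37 ± 0.06 (limma adjusted p = 0.00373), opposite to the pull-down. Krt26 was at 0.79, 1.16, 1.74 and 1.67 in WT and 2.74, 2.07, 2.64 and 2.68 in cKO (1.19 ± 0.24, limma adjusted p = 0.0131), also opposite to the pull-down, where its cKO libraries had 0 reads. The difference between the ages was not tested for these genes.

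**Figure D4:**
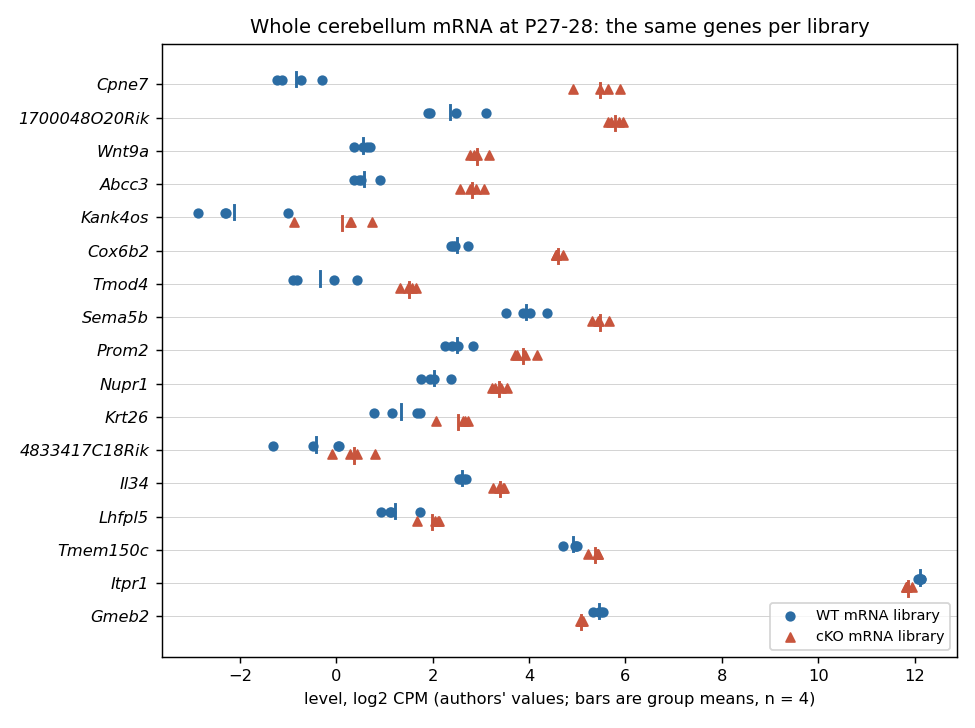
Level in whole cerebellum mRNA at P27 to P28 of the 17 genes listed at both ages, in the authors' log2 CPM; circles are WT and triangles cKO libraries, and bars are the group means (n = 4). The genotypes overlap for Lhfpl5 and 4833417C18Rik only. All 17 genes had passed the authors' test at this age, which favours groups that lie apart. The share without overlap among all listed genes was not counted, so the separation is no result about these genes.

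By role, the genes higher again at P27 to P28 came from most groups of function; 11% of all features were called higher. Among the 4 secreted signals Wnt9a and Il34 were higher, and Gal and Tac2 are not listed. Of the 8 membrane proteins 4 (Prom2, Abcc3, Lhfpl5 and Tmem150c) were higher and 4 (Cd180, Tnfrsf1b, Nrsn2 and Apmap) are not listed. Of the 5 noncoding or little-studied RNAs, 3 were higher. None of Psmg1, Gatsl3 and Crabp1 is listed.

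Few of the genes are listed for training on the rotarod. In mRNA of rotarod-trained against resting mice 3 of the 35 are listed (8.57%), where 3.37% of 26908 features were called, 2.06% as higher and 1.31% as lower. Npas4 was at 2.24, 2.61, 1.46 and 1.23 log2 CPM in the resting libraries and 4.71, 4.73, 4.69 and 5.08 in the rotarod libraries. Limma called 0.621% of features here, 0.42% as higher. The groups of Npas4 did not overlap, and it was 7.56-fold higher after training (2.92 ± 0.29, limma SE, Benjamini-Hochberg adjusted p = 0.00612). Npas4 was thus higher after training at P27 to P28 and higher in the cKO pull-down at P12, and is not listed in the comparison of cKO and WT mRNA at P27 to P28.

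Cd180 and Emilin3, both higher in the cKO pull-down, were lower after training in the authors' deposited table. Cd180 was at 0.90, 0.05, 0.60 and 0.64 log2 CPM at rest and -0.58, -0.65, -0.36 and -0.03 after training (-0.95 ± 0.20, limma adjusted p = 0.0991). Emilin3 was at 3.60, 3.64, 3.34 and 3.78 at rest and 3.21, 2.73, 2.78 and 3.0 after training (-0.66 ± 0.13, limma adjusted p = 0.0878). The groups of both genes were apart, and neither passed limma.

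Of the 30 higher genes 6 are also listed in the comparison of WT pull-down with WT input RNA (0.194% of 26243 features called), all lower in the pull-down (0.08% called lower). The 2 comparisons share the WT pull-down libraries, whose values in both differ by at most 5e-06. A low WT pull-down value thus enters both, so the number of genes listed is not independent of their choice. cKO input libraries were not analysed here. Cd180 was at 2.78, 1.84 and 1.62 log2 CPM in WT input, -3.10, -2.72 and -3.14 in WT pull-down, and 1.40, 3.30 and 4.97 in cKO pull-down. The cKO pull-down of Cd180 thus lay around the WT input, with 2 libraries above it and 1 below. Wnt9a was at -0.54, 0.89 and 0.78 in WT input, at the floor of -3.71 in all 3 WT pull-down libraries, and at 1.95, 0.17 and 2.53 in cKO pull-down. Apmap was at 3.42, 3.45 and 3.98 in WT input, 0.66, 0.39 and 0.49 in WT pull-down and 3.52, 3.99 and 3.60 in cKO pull-down. For Apmap input and cKO pull-down were level and WT pull-down was low in all 3 libraries.

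Nupr1, Gatsl3 and Crabp1 were more uneven. Nupr1 was at 0.60, 0.93 and 1.07 log2 CPM in WT input, at the floor in WT pull-down, and at 1.91, 1.92 and -2.32 in cKO pull-down. Gatsl3 was at -0.73, -0.39 and 0.51 in WT input, at the floor in WT pull-down, and at -1.77, -0.50 and 4.81 in cKO pull-down. Crabp1 was at -0.14, -0.08 and 1.47 in WT input, -3.71, -3.71 and -2.73 in WT pull-down, and -2.27, -3.71 and 6.79 in cKO pull-down. In each of these 3 genes 1 or 2 cKO libraries lay below all WT input libraries and 1 or 2 lay above. Limma, which called 0.0114% of features, all lower, passed Nupr1 (pull-down minus input -4.57 ± 0.29, Benjamini-Hochberg adjusted p = 0.0129) and Cd180 (-5.07 ± 0.39, adjusted p = 0.0251). Leaving out WT input libraries 1, 2 or 3, or WT pull-down library 1 or 3, ended both calls. Both calls use the WT pull-down values that helped to choose these genes, so they are no independent support.

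**Figure D5:**
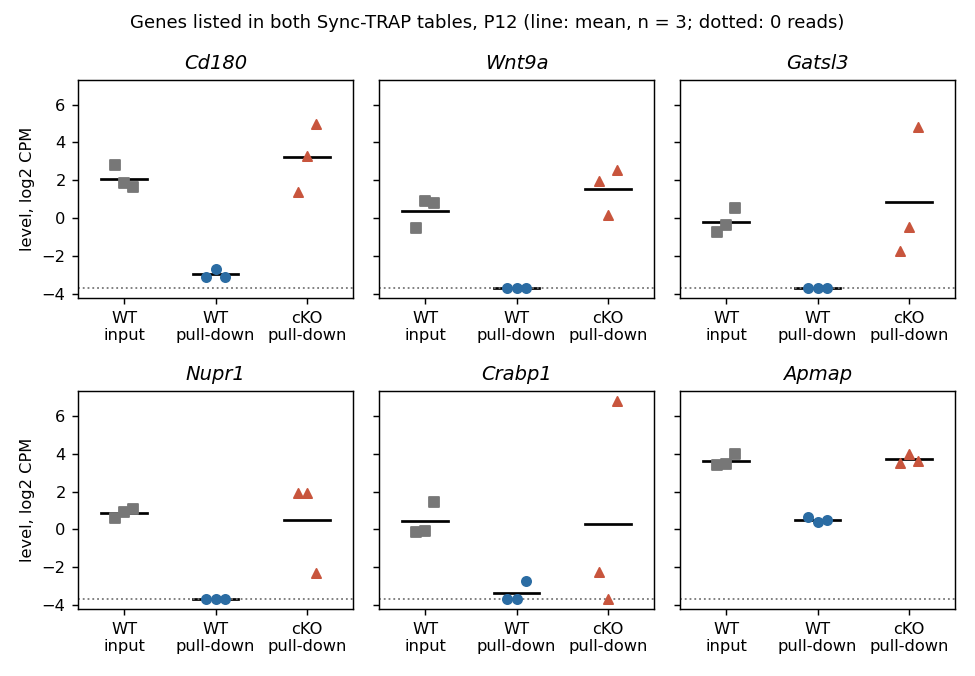
Level at P12 of the 6 genes listed in both Sync-TRAP comparisons, in the authors' log2 CPM, in WT input (squares), WT pull-down (circles) and cKO pull-down (triangles); lines are means (n = 3) and the dotted line is the value of 0 reads. In each panel the WT pull-down is the lowest group on average, which the choice of genes by both comparisons largely fixed in advance. The cKO pull-down libraries are about level with WT input for Apmap and widely spread for Crabp1 (-2.27, -3.71 and 6.79).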

How the data were processed

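The deposited gene tables give log2 CPM per library and, per the file headers, a log2 fold change, a mean log2 CPM, a likelihood ratio (a score) and p-values, raw and adjusted, from the authors' comparison. The tools were Bowtie, on build mm9, and edgeR, per the submitters' processing notes, with no version or counting tool named there. From the deposited p-values it can be read that each table lists genes with an adjusted p under 0.05. Features tested were recovered from the deposited p and adjusted p.

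Values share a floor, that of 0 reads, and steps above it gave whole reads (all values up to 300 reads within 0.1 read) and effective depth. Pull-down folds are ratios of summed reads to summed depth over a group, and mRNA folds are the antilog of the mean log2 difference; with 0 reads a floor of 3 reads over the group was used. Intervals are 95% and exact, and with floors cover counting error only. Limma 3.58.1 (R 4.3.3) was run on the deposited log2 values of all genes of a table, with p-values adjusted by Benjamini-Hochberg over all features tested. Its variance prior comes from called genes alone. Tested on simulated data, 200 changed genes among 5508, it recovered 58% and 89% of log2 changes of 0.5 and 1 at the spread of the P27 to P28 table (5.77% of calls false), and 0% at the pull-down spread. The simulated p-values were adjusted over the 5508 genes alone, most of them unchanged. The deposited tables hold called genes only, so these rates need not hold for the fits reported. No pseudocount was added.

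The members and lists were chosen with earlier results of these data known. Every member may be named. Reads per library are given for members that fell, the 12 with the largest rise in the authors' deposited table and any listed in another table. Alternatives were 1 CPM added, a variance trend, an adjusted p under 0.01, a minimum fold, an abundance limit, the replicate number as a block and each library left out. The main fits took no pairs from the replicate numbers. Deviations of same-numbered WT and cKO pull-down libraries correlated at 0.138, 0.0178 and 0.138. Libraries 1 and 3 did so best with their own number. Rotarod columns are known by group only. The region lists, on mm9, and the chromatin samples were not used here. Identifiers of all 35 genes matched the reference names. The summed Purkinje marker level is not reported here.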

Additional observations from a re-analysis of the deposited data

Results flagged for a closer look

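In 6 of 40 groups of 4 mRNA libraries looked at, 1 library lay far from the other 3, where chance alone gives about 1 in 20. For Cox6b2 cKO library 4 was high at 4.71 log2 CPM, and for Krt26 cKO library 2 was low at 2.07. Tmem150c had a low library in both genotypes, WT library 1 at 4.71 and cKO library 2 at 5.22 log2 CPM. For Itpr1 cKO library 4 was high at 11.95, and for Npas4 1 rotarod library was high at 5.08 log2 CPM. Leaving out single libraries kept the direction and the limma call of these 5 genes.

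Gmeb2 moved in opposite directions at the 2 ages, with a log2 difference (cKO minus WT) of 2.30 in the P12 pull-down and -0.37 in whole cerebellum mRNA at P27 to P28. Every cKO library was above every WT library in the first and below in the second. The difference between them was not tested.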

How the results depend on the processing

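The direction of each member's difference in each comparison was kept under every alternative run. Where groups do not overlap, leaving out a library could not reverse it. With the authors' adjusted p under 0.01 in place of 0.05, the calls in the pull-down went from 30 higher and 5 lower to 2 and 0, and they were 16 and 2 when genes under the list's median abundance were left out. For rotarod training limma passed 1 member, and 2 with 1 CPM added or with a variance trend, when Emilin3 passed. For WT pull-down against input it passed 2, 0 with 1 CPM added, 4 with a trend, 0 at an adjusted p under 0.01, and 0 to 5 with 1 library left out.

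With the replicate number as a block limma passed 0 members in the pull-down, 15 (14 higher and 1 lower) at P27 to P28 and 3 in WT pull-down against input. Kank4os (adjusted p = 0.0683) and Itpr1 (0.059) lost their limma call at P27 to P28 and 4833417C18Rik gained one (0.0258). Same-numbered libraries correlated at 0.0983, 0.16, 0.131 and 0.0846 at P27 to P28. In pull-down against input they correlated at 0.394, -0.000644 and 0.344. Libraries 1, 2 and 3 of the first and 1 and 3 of the second correlated best with their own number. WT input and WT pull-down titles carry the same numbers, so these libraries may be pairs. The main fits left the numbers out. The rotarod columns carry no usable numbers.

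The P27 to P28 count was 15 or 16 with 1 library left out, and the higher pull-down genes without overlap were 28 to 30 (an alternative chosen after seeing the data). Leaving out a library cannot lower that second count. Depth limits the genes near 0 reads in WT, where folds are lower bounds or have wide intervals.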
